A study of Mus musculus with 12 samples.

Results

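The response of open chromatin to 1 h of lipopolysaccharide (LPS) was followed in a macrophage line that carries an inducible gene for green fluorescent protein (GFP). The comparison used 6 of the 12 samples of the study, chosen by their titles: 3 libraries of LPS-treated and 3 of untreated GFP cells. The cells were RAW264.7, a transformed mouse macrophage line, as a stable line with doxycycline-inducible GFP. Both groups received 1 µg/ml doxycycline for 18 h, so GFP induction and doxycycline were common to treated and control cells. LPS was then given at 500 ng/ml for 1 h, or not at all. The labels do not say whether the line was 1 clone or whether replicates were separate cultures, so p-values speak only to the variation among these libraries, which may be technical. The other 6 samples came from a line with inducible Nur77, a nuclear receptor encoded by Nr4a1, grown and treated in the same way. They were used only as libraries that had no part in choosing the regions. ATAC-seq marks accessible DNA by the insertion of a transposase, and each library is given here as its own mm10 peak list. Merging the peaks of the 6 GFP lists gave 95182 regions. In a bulk sample, fewer cells with an open region and a less open region in each cell cannot be told apart.

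LPS, a component of the outer membrane of Gram-negative bacteria, is sensed on macrophages by the receptor TLR4 with its partners CD14 and MD-2. The adaptors MyD88 and TRIF pass the signal to kinases that release NF-kB from its IkB inhibitors, activate MAP kinases and the AP-1 factors downstream of them, and activate interferon regulatory factors. Within the first hour macrophages transcribe immediate early genes, cytokines, chemokines and the inhibitors that later end the response, and the chromatin of enhancers bound by the lineage factor PU.1 is remodelled around newly bound NF-kB and AP-1.

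The start windows of 6 genes are given first, because their accessibility differed between the groups and their letters can be set beside the result. Cxcl10 encodes a chemokine for activated T cells, Gbp2 a guanylate-binding protein and Rsad2 the antiviral enzyme viperin, and the region over each start rose in rank after LPS. Acod1 encodes the enzyme that makes itaconate, and the region over its start was called only after LPS in the GFP lists. Ifitm10 belongs to a family of interferon-induced transmembrane proteins and Myadml2 is a myeloid-associated differentiation marker-like gene, and the region over each start fell in rank. Each window holds 250 bases before and 50 after the start, 5′ to 3′ on the strand of the gene, from RefSeq on GRCm38.p6. Capitals mark matches, on either strand, to a loose NF-kB motif (GGG and CC with any 5 bases between them), TGANTCA (AP-1), TGACGTCA (CRE), GAGGAAGT (PU.1) or the interferon-stimulated response element (ISRE, GAAA and GAAA with any 2 bases between them). No motif in this set contains another, but 2 matches of the NF-kB motif can overlap, as at -104 and -103 in Cxcl10. Cxcl10 and Gbp2 were added after their values were seen. Each region extends beyond the window shown, so its change in rank need not lie within these letters.
Cxcl10, chr5:92348840-92349139, minus strand: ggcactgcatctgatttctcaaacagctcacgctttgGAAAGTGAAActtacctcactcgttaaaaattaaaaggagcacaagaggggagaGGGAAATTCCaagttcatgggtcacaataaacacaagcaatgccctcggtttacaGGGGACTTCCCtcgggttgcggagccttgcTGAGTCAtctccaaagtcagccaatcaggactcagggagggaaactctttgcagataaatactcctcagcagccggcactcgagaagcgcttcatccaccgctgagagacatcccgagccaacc
Gbp2, chr3:142620413-142620712, plus strand: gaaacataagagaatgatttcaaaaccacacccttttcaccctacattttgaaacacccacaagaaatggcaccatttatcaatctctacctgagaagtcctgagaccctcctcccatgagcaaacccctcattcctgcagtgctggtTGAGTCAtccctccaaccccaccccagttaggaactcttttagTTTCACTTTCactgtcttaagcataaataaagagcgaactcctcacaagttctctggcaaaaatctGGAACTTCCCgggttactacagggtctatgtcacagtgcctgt
Rsad2, chr12:26456403-26456702, minus strand: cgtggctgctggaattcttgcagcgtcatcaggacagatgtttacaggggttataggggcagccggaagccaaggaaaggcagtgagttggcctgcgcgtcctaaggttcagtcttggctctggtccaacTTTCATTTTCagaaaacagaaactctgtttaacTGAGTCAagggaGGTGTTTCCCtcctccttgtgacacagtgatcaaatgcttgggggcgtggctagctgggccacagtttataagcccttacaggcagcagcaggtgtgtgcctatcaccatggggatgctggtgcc
Acod1, chr14:103046762-103047061, plus strand: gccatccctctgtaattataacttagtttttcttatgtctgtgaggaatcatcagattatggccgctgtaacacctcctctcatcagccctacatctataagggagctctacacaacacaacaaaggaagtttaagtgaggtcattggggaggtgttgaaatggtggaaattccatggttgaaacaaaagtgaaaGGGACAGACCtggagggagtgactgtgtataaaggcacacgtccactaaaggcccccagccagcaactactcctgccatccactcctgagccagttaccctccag
Ifitm10, chr7:142372210-142372509, minus strand: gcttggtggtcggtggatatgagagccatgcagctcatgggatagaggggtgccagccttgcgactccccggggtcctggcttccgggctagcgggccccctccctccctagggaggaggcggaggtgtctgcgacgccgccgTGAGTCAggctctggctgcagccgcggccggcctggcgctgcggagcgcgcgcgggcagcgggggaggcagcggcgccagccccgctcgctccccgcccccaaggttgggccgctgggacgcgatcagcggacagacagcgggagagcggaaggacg
Myadml2, chr11:120648288-120648587, minus strand: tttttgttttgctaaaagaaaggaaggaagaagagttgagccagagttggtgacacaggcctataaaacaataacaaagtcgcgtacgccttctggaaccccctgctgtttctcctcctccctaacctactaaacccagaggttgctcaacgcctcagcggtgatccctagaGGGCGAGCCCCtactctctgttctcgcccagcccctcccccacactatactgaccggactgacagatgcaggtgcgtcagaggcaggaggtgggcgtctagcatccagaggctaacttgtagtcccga

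In these windows the Cxcl10 sequence held 5 matches, which were 3 of the NF-kB motif, 1 of AP-1 with its first base at -74 and 1 of the ISRE at -213, counted from the gene's start. Rsad2 and Gbp2 each held 3 matches, 1 each of NF-kB, AP-1 and the ISRE. The Acod1 window held 1 match, of the NF-kB motif at -55, and the Ifitm10 window shown 1 match, of AP-1 at -107. Of the other Ifitm10 start windows, 1 held the same match at -39 from its own start and 1 held none. The Myadml2 window held 2 overlapping NF-kB matches. The NF-kB motif is so loose that 57.0% of all 21263 start windows held it, against 70.2% of the 305 windows in regions that rose, 69.5% of the 1017 in regions that fell and 69.9% of the 9104 in regions called in all 6 libraries that did neither. AP-1 matches stood in 6.99% of all windows, in 43 of the 305 in rising regions (14.1%), in 30 of the 1017 in falling regions (2.95%) and in 4.69% of those that did neither. For the ISRE the shares were 3.35%, 5.25%, 2.36% and 2.80% in the same order, for the PU.1 motif 3.13%, 5.90%, 4.03% and 3.10%, and for the CRE 2.23%, 2.95%, 2.85% and 3.64%. A match is a description of the letters and not a bound site, and windows were available for 17492 of 21887 protein-coding genes.

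The untreated lists held 54515 to 65061 peaks and the LPS lists 48275 to 81467 (means 61530 ± 6075 and 62210 ± 17224, SD, n = 3 each). A background height derived from the lists, a stand-in for depth, ran from 0.919 to 1.14 reads in the untreated and from 0.411 to 1.45 in the LPS libraries, with LPS replicate 1 lowest and LPS replicate 3 highest of the 6. A listed peak had at least 5 to 8 reads at its summit, so absence of a weak region from a list means only that it was below what that depth could detect. Peaks covered 52.4 to 56.7 Mb in the untreated and 39.6 to 77.5 Mb in the LPS libraries. Their median width was 648.3 ± 53.0 and 649.0 ± 27.2 bp, and 14.3% ± 1.33 and 14.4% ± 3.14 of them lay at gene starts (SD, n = 3 each). As a description, correlations of rank over the shared regions were 0.934 to 0.951 among untreated and 0.903 to 0.940 among LPS libraries, and 0.828 to 0.871 between the groups (34364 regions, which share depth and sequence composition across libraries). The macrophage markers Spi1, Csf1r, Adgre1, Itgam, Cd68, Lyz2 and Cebpa each had a region called in all 6 libraries within 1 kb. The same held for 7 of 15 markers of neurons, epithelium, fibroblasts, B cells and T cells, among them Cd4, Cd79a and Pax5, while Cd3e, Cd8a, Col1a2, Krt8, Syt1 and Snap25 had no region of any list there.

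After LPS, regions were called that no untreated library called, most of them away from gene starts. A region was termed gained when 3 of 3 LPS and 0 of 3 untreated libraries called it, and lost in the opposite case. There were 1509 gained regions, 17.4% of the 8662 called in exactly 3 of the 6 libraries, and 800 lost regions, 9.24% of them. Calls of yes or no allow no test below an exact p of 0.1 for a single region, so these counts are descriptions. In lists trimmed to the 48275 strongest peaks each, gained regions were 1750 of 5952 (29.4%) and lost regions 1037 (17.4%). The gained regions of both kinds of list numbered 990 (65.6% of those as deposited) and the lost regions 222 (27.8%). The gained count rose to 4069 when LPS replicate 1 was left out and to 2422 when replicate 2 was. The lost count rose to 3813 without LPS replicate 3 and to 2012, 1261 and 1276 without untreated replicates 1, 2 and 3. The excess of gained over lost regions turned round in 2 of these settings, to 1679 gained against 3813 lost without LPS replicate 3 and to 1660 against 2012 without untreated replicate 1.

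**Figure D1:**
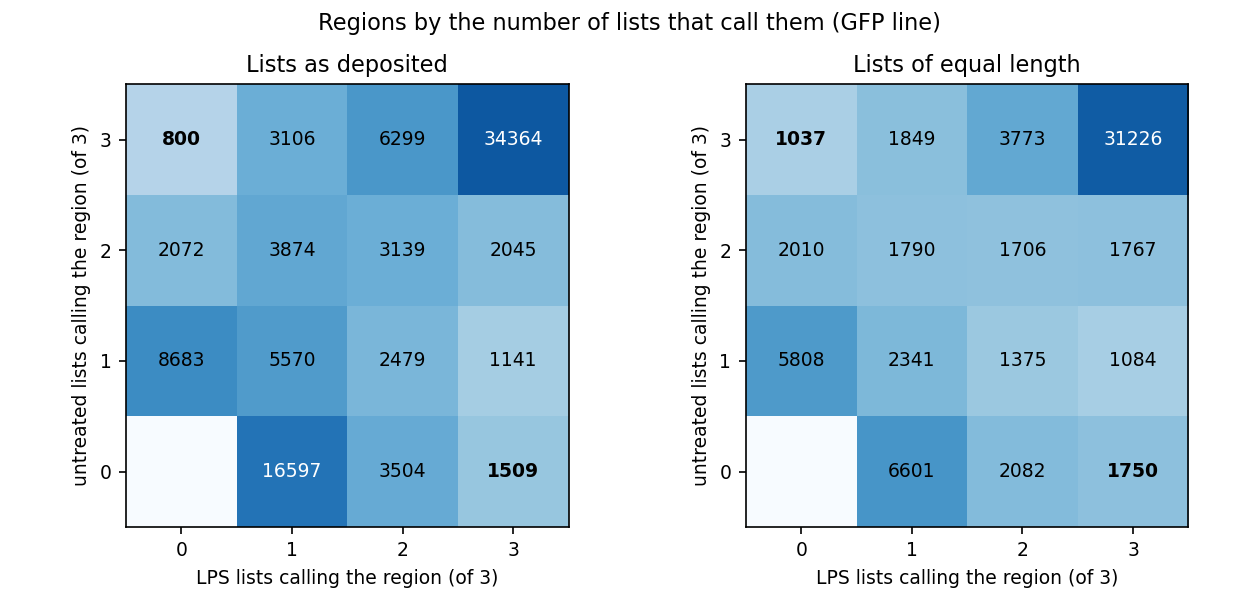
Number of regions by how many of the 3 untreated lists (vertical) and how many of the 3 LPS lists (horizontal) called them, for the lists as deposited (left) and trimmed to equal length (right). Darker squares hold more regions, and bold numbers are the lost (800 and 1037) and gained (1509 and 1750) regions.

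Gained and lost regions lay in different places. Of the 1462 gained regions on chromosomes with start windows, 13 overlapped a start window (0.889%), against 14 of 774 lost (1.81%) and 1.44% of the regions called in 3 of 6 libraries without separating the groups. The median distance to the nearest start with a window was 45.2 kb for gained, 24.8 kb for lost and 26.0 kb for the regions that did not separate. Of the gained regions, 43.8% lay within 50 kb of a shared region that rose in rank and 15.2% within 50 kb of one that fell. For lost regions these shares were 23.5% and 40.8%, and for regions that did not separate 26.5% and 24.1%.

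The strongest gained regions ranked high in the LPS lists. A list percentile is the rank of a region's strongest peak by -log10 q within its own whole list, with 100 as the strongest. The region over the start of Acod1 (chromosome 14, 103046425 to 103047818) stood at list percentiles of 87.6, 87.1 and 92.6 in LPS replicates 1, 2 and 3, with the authors' fold enrichments of 32.6, 40.6 and 65.3, and was absent from all untreated lists. It was not alone at that locus, where a second region downstream of it was gained and 4 further regions rose in rank. The second gained region was weak, at list percentiles of 22.3, 7.19 and 29.5, and was not gained in lists of equal length. Peaks of 1 rising region, at 103054724 to 103062417, covered 1363, 1363 and 1320 bp before and 4785, 5492 and 7611 bp after LPS. The highest of all gained regions lay 66.3 kb from Dtwd1, a gene of tRNA modification (91.5, 89.7 and 92.0). A region 34.3 kb from Nfkbiz, which encodes the nuclear IkB protein IkB-zeta, stood at 82.8, 86.5 and 86.4.

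Several of the other leading gained regions lay inside genes outside the listed pathway. These were Thbs4 and Col23a1, genes of matrix and membrane-bound collagen proteins (79.6, 86.5 and 91.3, and 82.8, 85.8 and 87.3), Gphn, the gephyrin gene (74.8, 84.8 and 89.0), and Pgm5 (84.8, 75.2 and 87.4). Others lay inside Akap13, a gene of a kinase anchoring protein (77.8, 85.5 and 88.8), Akna (82.1, 81.5 and 86.9) and Arhgef3, a guanine nucleotide exchange factor gene (72.4, 88.0 and 87.3). Between genes, regions were gained 94.7 kb from Gatb (84.2, 87.1 and 88.4), 210.5 kb from Matn1 (77.8, 84.0 and 90), 67.4 kb from the antiproliferative gene Btg1 (78.7, 83.2 and 86.1) and 23.3 kb from Tcp11 (77.8, 80.5 and 89.0). In 12 of these 14 regions LPS replicate 3, the library with the highest background height, gave the highest percentile, and the part of depth in these values was not tested. In the Nur77 line 3 of 3 LPS libraries called each of the 14. Its untreated libraries called the Akap13 and Btg1 regions in 3 of 3, Pgm5 in 2 of 3, Thbs4, Gphn and Tcp11 in 1 of 3, and the rest in 0 of 3.

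Within 50 kb of listed inflammatory genes the gained regions included 2 inside Nfkb1, which encodes the p50 precursor (71.2, 73.9 and 84.7, and 55.0, 67.1 and 77.4). Another lay inside Rel, the gene of the c-Rel subunit (57.4, 69.1 and 77.4). Regions were gained 2.98 kb from Mmp14, whose product is a matrix protease of the cell surface (71.2, 70.8 and 84.4), 5.55 kb from Fpr2, a formyl peptide receptor gene (52.3, 73.1 and 81.9), and 19.3 kb from Batf, an AP-1 family gene (59.6, 62.4 and 80). Lost regions were weaker, and their highest list percentiles stayed near the middle of the untreated lists. By definition, a lost region was absent from LPS replicate 3, the library with the highest background height (1.45). A gained region had to be called in LPS replicate 1, the library with the lowest (0.411). The part of depth in this contrast was not tested. The leading lost regions lay inside Ptprn2 (55.1, 67.3 and 61.3 in untreated replicates 1, 2 and 3), 7.51 kb from Cited2, a transcriptional coregulator gene (53.6, 67.3 and 61.3), and 6.86 kb from Dock6 (56.5, 58.2 and 66.3). A region 5.79 kb from Ifngr2, which encodes a chain of the interferon gamma receptor, stood at 52.0, 59.5 and 69.0. In the Nur77 line 0 of 3 untreated libraries called it, while 1 to 3 called each of the other leading lost regions. Others lay inside Taf3, Nceh1, a cholesterol ester hydrolase gene, Ncapd2, a condensin gene 3.5 kb from Gapdh, Cyfip2 and Smyd3, and 88.0 kb from Jag1, a Notch ligand gene, at mean list percentiles of 56.1 to 59.1.

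A few genes held long runs of gained regions. Rps6ka2, which encodes the MAP kinase-activated kinase RSK3, was the nearest gene of 12 gained regions, 4 of them also gained in lists of equal length. Nfkb1 was nearest to 11 (3 in both) and Cd44, a hyaluronan receptor gene, to 10 (8 in both). The 12 at Rps6ka2, of 45 regions nearest to that gene, stood at list percentiles of 2.40 to 61.9, and 9 of them were called in 0 of 3 LPS libraries of the Nur77 line. In Rps6ka2 the run of 12 lay between 7237912 and 7291279 on chromosome 17, and the longest region of it was covered by 2150, 4492 and 7476 bp of peaks in the LPS libraries. Along Cd44, regions at 102804859 to 102811376 and 102811594 to 102822564 on chromosome 2 were called in all 6 libraries. Peaks covered 693, 384 and 661 bp of the first in untreated and 5549, 6329 and 6479 bp in LPS libraries, which did not overlap. The start region of Cd44 rose from shared percentiles of 86.9, 89.0 and 88.3 to 97.4, 97.0 and 95.1 (ranks among the regions called in all 6 libraries, limma, adjusted p = 3.6e-05). Lrrc8d, a volume-regulated channel gene, was nearest to 6 gained regions, and Abr, Arhgef3, Ifih1, Malt1, Rbfox1 and Slc1a2 to 5 each. Also gained in lists of equal length were 0 at Lrrc8d, 1 at Abr, 4 at Arhgef3, 5 at Rbfox1 and 3 each at Ifih1, Malt1 and Slc1a2. Ifih1 encodes the RNA sensor MDA5 and Malt1 a protease of NF-kB signalling.

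The opposite was seen at Kmt2d, the gene of a histone H3 lysine 4 methyltransferase, which was nearest to 6 lost regions. They lay between 98833853 and 98858291 on chromosome 15 at low list percentiles, from 2.08 to 44.1, and 1 of the 6 was also lost in lists of equal length. The neighbouring region over the Kmt2d start was called in all 6 libraries, and its peaks covered 14460, 13548 and 12432 bp in untreated and 2767, 3226 and 4429 bp in LPS libraries. Its centred width fell by 1.95 ± 0.11 on the log2 scale (SE, limma, adjusted p = 3.1e-05), while its rank did not pass (adjusted p = 0.22). Jag2, another Notch ligand gene, was nearest to 5 lost regions and Vegfa, a growth factor gene, to 4, and none of these was also lost in lists of equal length. Snrk, a kinase gene, was nearest to 3, all of them lost in both kinds of list, and its start region fell from 62.5, 66.0 and 63.1 to 40.9, 39.2 and 40.9 (limma, adjusted p = 0.0026).

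Among the 34364 regions called in all 6 libraries (36.1% of all), LPS reordered the list in both directions. A shared percentile is the rank among these regions only, which has the same length in every library, and was tested as a normal score (the value that a standard normal distribution has at that rank) with limma. At an adjusted p under 0.05, 3762 regions rose (10.9%) and 2972 fell (8.65%), and the median difference in normal score over all regions was -0.05. Ranks are relative, so a region can fall because others rose. The strongest peak of a region sets its rank, and that peak can lie at different sites in different libraries. Rising regions moved by a median of 22.5 percentile points (10th to 90th percentile 9.47 to 42.7), and 2254 moved by at least 20. Falling regions moved by a median of -19.3 points (-29.8 to -7.73), and 1378 by at least 20. The LPS and untreated percentiles did not overlap in 3677 of the 3762 rising and 2884 of the 2972 falling regions. Over all shared regions, all LPS percentiles were above all untreated ones in 16.6% and below them in 19.2%. Ranked within the whole lists, 1419 regions rose and 493 fell. Without untreated replicate 1, 2 or 3, falling regions numbered 1682, 1506 and 1737.

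**Figure D2:**
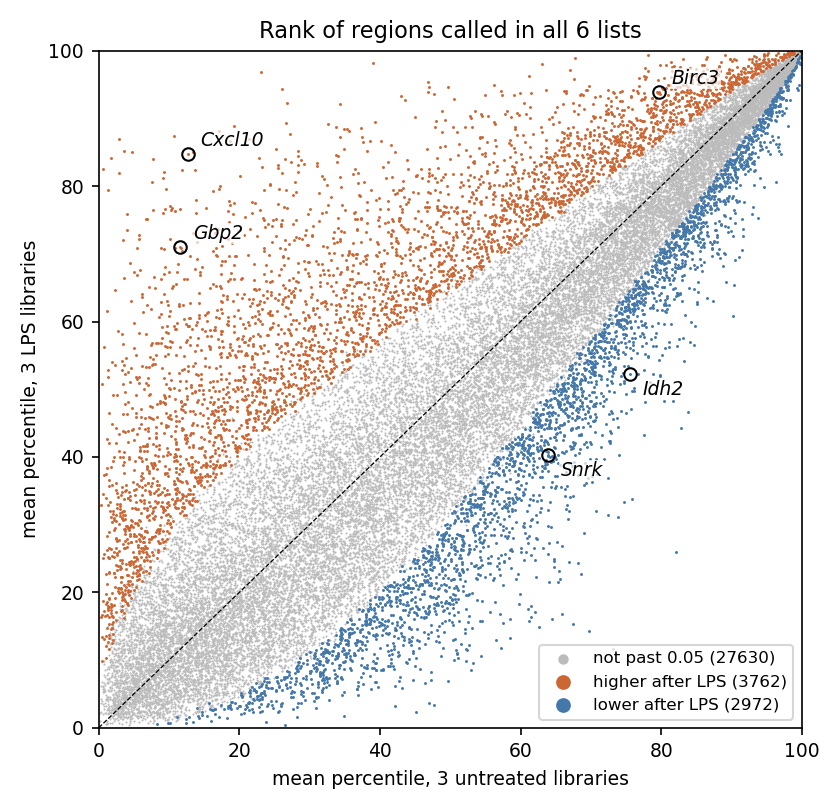
Mean shared percentile in the 3 untreated (horizontal) and the 3 LPS libraries (vertical), 1 point per region called in all 6 lists, with the dashed line at no change. Orange points are the 3762 regions past an adjusted p of 0.05 that rose, blue points the 2972 that fell, and circles mark start regions of named genes, with Cxcl10 and Gbp2 far above the line and Idh2 and Snrk below it.

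Rises and falls differed in where they lay. Start windows existed for 17492 of 21887 protein-coding genes and for none on chromosome 18, so 33406 of the 34364 shared regions were placed. A start without a window counts here as no start. At gene starts 250 of 8081 shared regions rose (3.09%) and 817 fell (10.1%). Inside genes but not at a start, 1601 of 13473 rose (11.9%) and 1269 fell (9.42%), and between genes 1781 of 11852 rose (15%) and 814 fell (6.87%). The median difference in normal score was -0.12, -0.04 and 0.02 in these places. When gene starts were ranked apart from other regions, an alternative chosen after seeing the data, 3343 regions rose and 2731 fell.

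The largest rises brought regions from the bottom of the untreated ranking to its upper part. Inside Tnfrsf8, which encodes CD30, a receptor of the TNF family, 1 region stood at shared percentiles of 0.879, 0.831 and 0.0713 in untreated and 78.3, 83.8 and 85.5 in LPS libraries. The normal score rose by 3.60 ± 0.27 (SE, limma, adjusted p = 8e-10), and Tnfrsf8 was nearest to 7 rising regions of 10 shared ones. A region inside St3gal1, a sialyltransferase gene, stood at 4.96, 0.378 and 3.28 before and 86.3, 83.4 and 91.1 after LPS (difference 3.19 ± 0.23, adjusted p = 6.6e-10). A region 0.535 kb from Gdnf, a neurotrophic factor gene, rose from 3.22, 0.831 and 1.08 to 84.1, 87.7 and 80.7. In each of these regions the groups were separated by over 20 points, but they were chosen for the size of their rise.

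Near Errfi1, a feedback inhibitor of the EGF receptor, a region at 15.5 kb rose from 9.14, 3.56 and 1.71 to 82.8, 86.2 and 86.0 (2.79 ± 0.20, adjusted p = 6.2e-10). Inside Clec4e, which encodes the lectin receptor Mincle, a region rose from 0.271, 0.102 and 1.08 to 51.2, 61.9 and 39.1 (2.74 ± 0.33, adjusted p = 1.4e-06). Its strongest summit lay at different sites, 129, 999 and 3617 bp from the region's start in untreated and 5168, 5131 and 5059 bp in LPS libraries. A region inside Alpk2 began higher, at 26.8, 29.2 and 13.4, and reached 96.8, 96.6 and 97.2. The other leading rises lay near Gm5148, Hs1bp3, St7, Aebp2, Ptpn1, Pcgf5, Marcksl1 and Gpr26, with differences in normal score of 2.53 to 3.12. Aebp2 and Pcgf5 encode Polycomb complex members and Ptpn1 the phosphatase PTP1B.

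The largest falls were smaller in size. A region absent from any list is not ranked here, which limits the size of both falls and rises. A region 13.9 kb from St6gal1, another sialyltransferase gene, stood at 76.1, 67.0 and 76.2 before and 23.3, 7.65 and 3.98 after LPS (difference -1.93 ± 0.22, SE, limma, adjusted p = 5.3e-07). The region over the Ifitm10 start fell from 79.7, 71.2 and 58.3 to 23.3, 7.65 and 11.8 (-1.65 ± 0.20, adjusted p = 2e-06). It ran from 142366068 to 142380664 on chromosome 7, far beyond the letters given above, and also overlapped Ctsd. Its peaks covered 13965, 13319 and 12409 bp in untreated and 3273, 2871 and 6396 bp in LPS libraries (limma on centred width, adjusted p = 0.0014). A region 38.6 kb from Slc40a1, which encodes the iron exporter ferroportin, fell from 52.2, 46.6 and 44.4 to 0.920, 3.56 and 5.65. The value 0.920 is the lowest rank in LPS replicate 1, shared by its weakest peaks (fold 4.25), and several of the other falls also reached it. The other falls lay near Tmed10, Swap70, Adcy9, an adenylate cyclase gene, Cpn1, Tnrc6c, Npr3 and Osbpl11, with differences of -2.14 to -1.64. In each of these 10 regions every LPS percentile was below every untreated one, but they were chosen for the size of their fall.

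The genes of the pathway were followed as lists, in order of their roles, through all regions within 50 kb of a listed gene. A region can lie near genes of 2 lists. Of 95 shared regions near 17 genes of TLR4 and its pathway, 11 rose (11.6%) and 9 fell (9.47%), close to the 10.9% and 8.65% of all regions, and 3 of 15 called in exactly 3 libraries were gained and 1 lost. No region near Tlr4 or Ly96, which encodes MD-2, passed, out of 5 and 4. The strongest rise in that list lay inside Ikbke, a kinase of the interferon branch, from 63.3, 59.4 and 59.0 to 88.3, 94.8 and 93.7 (difference 1.18 ± 0.11, SE, limma, adjusted p = 3.2e-08). Its strongest summit lay 609, 602 and 708 bp from the region's start in untreated libraries. In LPS libraries that summit lay at 2498, 2483 and 2483 bp, so the ranked sites differed between the groups. The strongest fall lay inside Plin3, 4.3 kb from Ticam1, the gene of the adaptor TRIF (36.2, 25.8 and 31.4 to 10.2, 0.301 and 7.49, adjusted p = 0.007).

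Near NF-kB subunits, their inhibitors and feedback regulators, 31 of 143 shared regions rose (21.7%) and 6 fell (4.20%), with a median difference in normal score of 0.05. Of the 53 regions called in exactly 3 libraries near these genes, 29 were gained and 2 lost, against 17.4% and 9.24% of all such regions. Nfkb1 accounted for 11 of the 29, and 12 were also gained in lists of equal length. At least 1 region rose near 14 of the 19 genes, against 12 of 20 genes of lipid and energy metabolism, whose share of rising regions was 8.97%. The share over all genes was not computed, and genes differed in how many regions lay near them. Near Tnip1, which encodes an A20-binding inhibitor of NF-kB, regions moved both ways. One at 8.87 kb rose from 0.879, 3.56 and 6.57 to 64.2, 47.7 and 48.9 (1.99 ± 0.27, adjusted p = 9e-06). One at 25 kb on the other side, next to Hint1, fell from 83.4, 81.3 and 81.7 to 31.2, 29.2 and 17.6 (-1.58 ± 0.14, SE, limma, adjusted p = 1.8e-08).

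Start regions of this list were looked up after the values were seen. The region over Nfkbia, the gene of IkB-alpha, was already strong, at 96.0, 98.1 and 95.6, and stood at 99.8, 99.6 and 99.7 after LPS (adjusted p = 5.5e-06). Tnip3 rose from 26.8, 34.0 and 28.6 to 55.3, 69.1 and 77.0, Tnip1 from 41.0, 32.4 and 54.8 to 70.9, 71.9 and 82.1, and Birc3, an inhibitor of apoptosis gene, from 77.3, 83.2 and 78.5 to 94.8, 93.5 and 93.4 (limma, adjusted p = 9.3e-05, 0.00013 and 6.9e-06). In these 4 start regions the groups did not overlap. No region near Rela passed, of 8 tested.

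**Figure D3:**
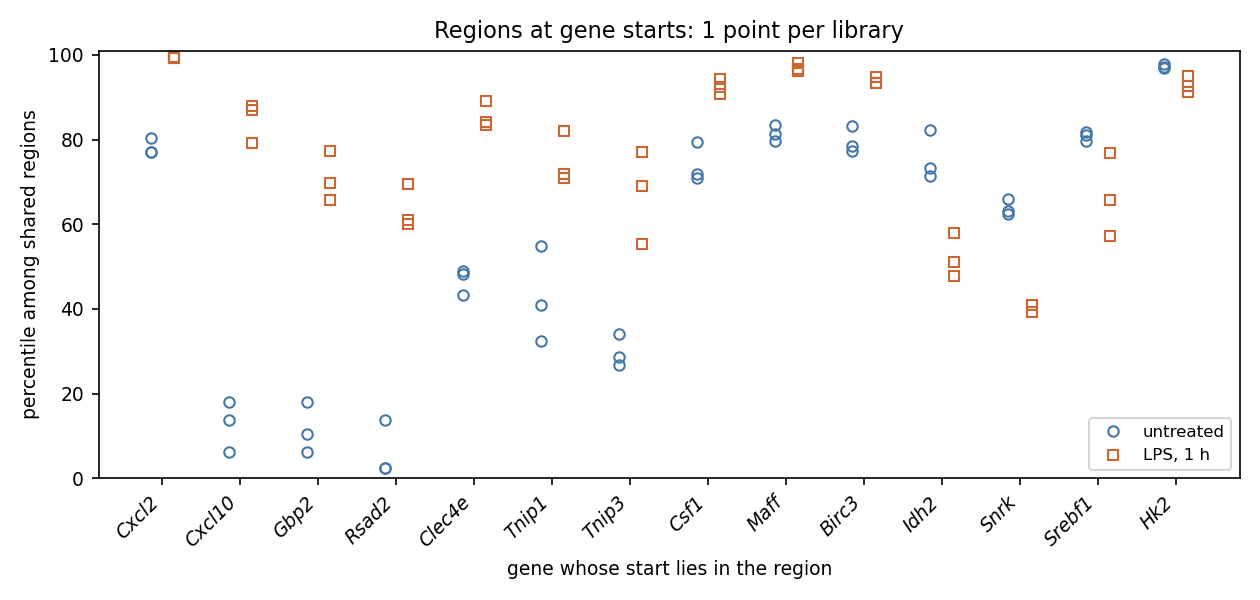
Shared percentile of the region over the start of each gene, 1 point per library, with untreated libraries as circles and LPS libraries as squares. The 10 genes at the left rose and Idh2, Snrk, Srebf1 and Hk2 at the right fell, and in each the LPS and untreated points are separate. For Srebf1 the start region at 60208492 on chromosome 11 is shown.

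Cytokine and chemokine genes had the highest share of rising regions of the 17 lists. Of 149 shared regions, 57 rose (38.3%) and 5 fell (3.36%), the median difference was 0.26 against -0.05 over all regions, and 14 of the 30 regions called in exactly 3 libraries were gained and 3 lost. At least 1 region rose near 23 of 25 genes, the exceptions being Il6 (0 of 2 regions) and Cxcl3 (0 of 1). The same held for 12 of 20 genes of lipid and energy metabolism and 1 of 10 housekeeping genes. Neighbouring genes such as Ccl2 and Ccl7 share regions, and the share over all genes was not computed. A region 2.47 kb from Ccl5, a T cell and monocyte chemokine gene, rose from 32.7, 29.2 and 16.4 to 90.9, 96.1 and 96.1 (2.28 ± 0.14, SE, limma, adjusted p = 4.5e-11). The largest fall of the list lay 19.8 kb from Csf1, the macrophage growth factor gene, from 24.7, 25.8 and 18.0 to 6.08, 5.48 and 6.57 (adjusted p = 0.047).

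Among start regions, also looked up after the values were seen, the one over Cxcl10 rose from 13.7, 6.29 and 18.0 to 79.1, 87.1 and 88.0, a difference of 72.1 points (2.22 ± 0.17 in normal score, SE, limma, adjusted p = 1.6e-09). The region over Cxcl2, a neutrophil chemokine gene, rose from 80.4, 77.1 and 77.1 to 99.3, 99.3 and 99.5 (1.71 ± 0.10, adjusted p = 1.3e-11). The region shared by Tnf and Ltb was near the top before LPS (97.9, 97.4 and 98.9) and reached 99.9, 99.9 and 100 (1.18 ± 0.14, adjusted p = 8.8e-07). Its strongest summit lay 8803, 8800 and 8804 bp from the region's start in untreated and 10070, 10096 and 10056 bp in LPS libraries. The Csf1 start rose from 79.4, 72.0 and 70.9 to 94.4, 92.5 and 90.9 (adjusted p = 3.6e-06). Near Il1b, which encodes interleukin 1 beta, 4 of 7 shared regions rose and 2 regions were gained.

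Near inflammatory enzymes and receptors 43 of 133 shared regions rose (32.3%) and 2 fell (1.5%), with a median difference of 0.13, and 11 of the 28 called in exactly 3 libraries were gained and 1 lost. They included 6 of 9 regions near Acod1, 5 of 10 near Ptges, a prostaglandin E synthase gene, and 5 of 7 near Cd83, an activation marker. For Ptgs2, which encodes cyclooxygenase-2, 2 of 3 rose, and for Nos2, the inducible nitric oxide synthase gene, 2 of 5. The start region of Clec4e, chosen after its values were seen, rose from 48.9, 43.2 and 48.2 to 84.1, 89.1 and 83.5 (1.15 ± 0.11, SE, limma, adjusted p = 7.9e-08). The stronger of the 2 falls lay inside Ncoa5, 34.6 kb from Cd40 (64.6, 69.8 and 68.4 to 37.9, 44.6 and 35.4, adjusted p = 0.00041).

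In rank, regions near the AP-1 and CREB family stood close to the background. Of 151 shared regions 17 rose (11.3%) and 12 fell (7.95%), with a median difference of -0.02. Of the 19 called in exactly 3 libraries, 6 were gained and 0 lost. Near Atf3, a stress-induced factor gene, 4 of 13 regions rose, led by one at 6.14 kb that went from 37.9, 35.4 and 10.5 to 82.8, 81.6 and 77.5 (1.51 ± 0.18, SE, limma, adjusted p = 1.4e-06). Maff, a small Maf gene, had 3 rising and 2 gained regions, and its start rose from 79.7, 83.5 and 81.4 to 96.2, 96.6 and 98.2 (adjusted p = 1e-07, chosen after its values were seen). Near Fos 1 of 9 regions rose and 2 fell, near Jun 1 of 4 rose and 1 fell, and near Junb 0 of 9 rose and 1 fell. The largest fall was the region over the start of Myadml2, 12.7 kb from Mafg (53.2, 53.2 and 50.1 to 6.08, 12.3 and 16.4, -1.28 ± 0.22, adjusted p = 0.00013).

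Other immediate early genes were also near the background, with 10 of 92 regions rising (10.9%) and 5 falling (5.43%), and 1 gained and 1 lost of the 16 called in exactly 3 libraries. Near Egr1, a zinc finger factor gene, 0 of 6 regions passed, and near Nr4a1 0 of 13 rose and 2 fell. A region 3.46 kb from Btg2 rose from 11.4, 20.5 and 22.7 to 68.3, 57.9 and 52.8 (limma, adjusted p = 8.1e-05). Feedback regulators of MAP kinases and mRNA decay had 27 of 160 regions rising (16.9%) and 5 falling (3.12%), with 8 of 31 gained and 1 lost. They included 4 of 17 regions near Irak2, 3 of 9 near the phosphatase gene Dusp5 and 3 of 11 near Socs3, a cytokine signalling inhibitor, and 0 of 6 near Zfp36, which encodes the mRNA decay factor tristetraprolin.

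Near interferon response genes 20 of 124 regions rose (16.1%) and 11 fell (8.87%), and 5 of 29 called in exactly 3 libraries were gained and 2 lost. The rises lay near 10 of 22 genes (against 12 of 20 for lipid and energy metabolism, with the share over all genes not computed). They included the starts of Rsad2 (13.7, 2.48 and 2.42 to 69.6, 60.0 and 61.1, 2.03 ± 0.25, SE, limma, adjusted p = 1.8e-06) and Gbp2 (18.1, 6.29 and 10.5 to 77.3, 69.8 and 65.8, 1.79 ± 0.19, adjusted p = 3.1e-07). In both the lowest LPS percentile was over 40 points above the highest untreated one. Near Ifnb1, the interferon beta gene, 0 of 2 regions passed, and near Ifit1, Ifit2 and Ifit3 none of 1, 4 and 3 rose and 1 fell.

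Macrophage identity genes moved both ways, with 18 of 145 regions rising (12.4%) and 21 falling (14.5%), and 2 of 26 called in exactly 3 libraries gained and 3 lost. Near Cebpb 3 of 13 rose and 3 fell, near Runx1 4 of 16 rose and 3 fell, and near Lyz2, the lysozyme gene, 0 of 8 rose and 4 fell. A region 10.9 kb from Xirp1 and 45.9 kb from Cx3cr1, the fractalkine receptor gene, rose from 47.6, 48.6 and 44.4 to 93.7, 96.2 and 96.2 (1.77 ± 0.10, SE, limma, adjusted p = 2e-11). For genes of lipid and energy metabolism falls outnumbered rises, at 26 of 145 (17.9%) against 13 (8.97%), with a median difference of -0.12, and 3 of 25 called in exactly 3 libraries were gained and 5 lost. The start of Idh2, a mitochondrial isocitrate dehydrogenase gene, fell from 82.3, 73.2 and 71.3 to 51.2, 57.9 and 47.7 (limma, adjusted p = 0.00062). The starts of Srebf1, a regulator of lipid synthesis, and of the hexokinase gene Hk2 fell less (the first from 81.0, 81.8 and 79.6 to 57.3, 76.9 and 65.8, adjusted p = 0.013, and the second from 96.9, 97.1 and 97.8 to 91.2, 95.1 and 92.7, adjusted p = 0.003). These 3 starts were chosen after their values were seen. For Srebf1 the values are those of the start region at 60208492 on chromosome 11. Another Srebf1 start region, at 60219441, also fell, from list percentiles of 93.3, 95.0 and 93.6 to 88.5, 90.5 and 90.9.

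Housekeeping genes had 2 of 72 regions rising (2.78%) and 9 falling (12.5%), and cell cycle and growth genes 12 of 119 rising (10.1%) and 10 falling (8.4%). Of the regions called in exactly 3 libraries, 1 of 18 was gained and 4 lost near housekeeping genes, and 4 of 30 were gained and 7 lost near cell cycle genes. Near markers of other cell types the counts were 0 and 1 of 20 for T cells, 1 and 2 of 15 for B cells, 0 and 0 of 6 for fibroblasts, 1 and 3 of 15 for epithelium, and 2 and 1 of 11 for neurons, rising and falling in that order.

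Some regions spread over several kilobases after LPS. The base pairs that a library's peaks cover in a shared region were compared on the log2 scale after subtracting each library's median. At an adjusted p under 0.05, 396 of 34364 regions were wider (1.15%) and 142 narrower (0.413%). Of the wider regions 269 also rose in rank (67.9% of the wider and 7.15% of the rising). Of the narrower regions 64 also fell in rank (45.1% and 2.15%). The widest change lay 3.63 kb from Anxa5, an annexin gene, where peaks covered 349, 486 and 310 bp in untreated and 6832, 10978 and 12340 bp in LPS libraries (log2 difference 4.73 ± 0.19, SE, limma, adjusted p = 1.9e-06). Next came the region inside Cd44 at 102811594 to 102822564, with 629, 482 and 445 bp before and 7374, 9611 and 10926 bp after LPS (4.19 ± 0.15).

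At Slc15a3, a transporter gene of endolysosomes, cover went from 423, 586 and 442 bp to 6844, 8677 and 9555 bp. That region also overlapped Tmem132a. Cover at Malt1 went from 897, 1037 and 850 bp to 13363, 14671 and 16923 bp. At Oasl1, an interferon-induced gene, the cover grew from 1454, 750 and 823 bp to 9087, 11417 and 13657 bp (adjusted p = 4.7e-05), while the rank of its strongest peak did not pass (limma, adjusted p = 0.82). The narrowed regions lay at Entpd6 (14360, 12844 and 14951 bp to 934, 1260 and 2169 bp), Gramd4, Mars1, Scd2, a stearoyl-CoA desaturase gene, and Rin3, with log2 differences of -3.33 to -2.75. Entpd6 kept a rank of 84.3 to 91.6 in all 6 libraries (limma, adjusted p = 0.72). Wider regions numbered 228, 147 and 228 when LPS replicates 1, 2 and 3 were left out in turn. Narrower regions numbered 54, 62 and 67 without untreated replicates 1, 2 and 3, 70 when LPS replicate 2 and 277 when LPS replicate 3 was left out, which turned the excess of wider regions round (228 against 277), and without centring 69 regions were wider and 17 narrower.

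**Figure D4:**
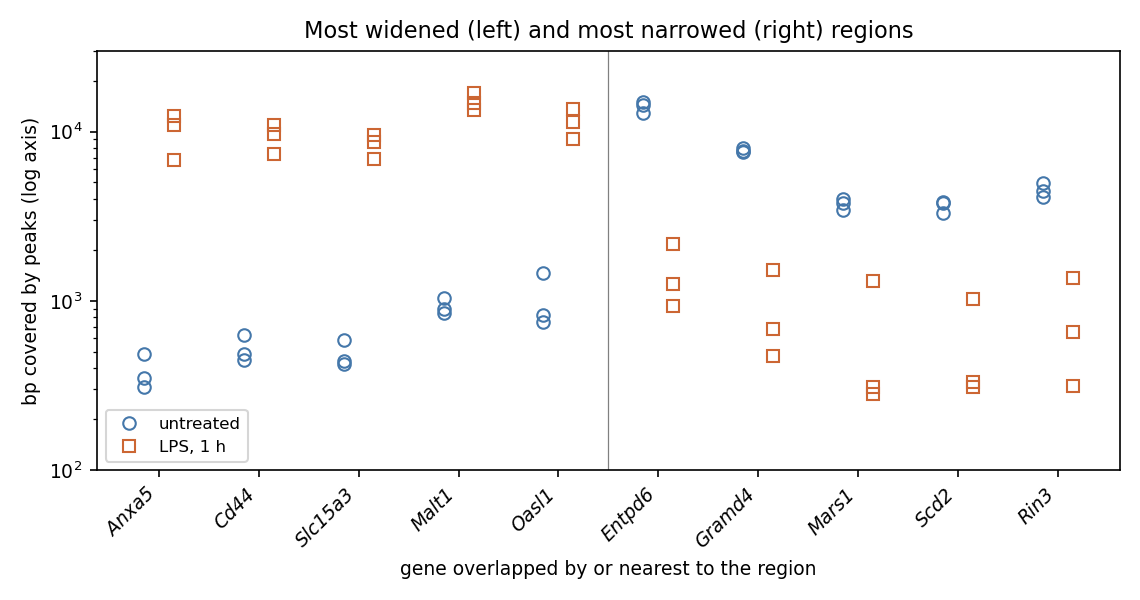
Base pairs covered by peaks in each library (log axis) at the 5 most widened and 5 most narrowed regions, with untreated libraries as circles and LPS libraries as squares. At Anxa5 the cover went from 310 to 486 bp to 6832 to 12340 bp, and at Entpd6 from 12844 to 14951 bp down to 934 to 2169 bp.

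The summit, the base with the most reads in a peak, changed position at few regions. In the GFP lists 15.3% to 19.2% of peaks held several summits, of which only the strongest was used. A move, here and below, is therefore a change in where the strongest summit lay. Whether a summit itself shifted or another summit of the same peak became the strongest was not tested. Of 28251 regions with exactly 1 peak in each list, 138 (0.488%) moved by at least 50 bp at an adjusted p under 0.05, 71 towards higher and 67 towards lower coordinates. The median absolute difference over all 28251 was 19.3 bp, within the median SD of replicates of 27.6 bp, and for the 138 it was 666.7 bp. Of these, 44 also rose in rank and 13 fell. Between genes, 83.9 kb from Cebpb, which encodes a macrophage transcription factor, the summit lay 1110, 1115 and 1115 bp from the region's start in untreated and 3413, 3374 and 3375 bp in LPS libraries (shift 2274.0 ± 14.4 bp, SE, limma, adjusted p = 1.6e-06). That region stayed among the strongest, at shared percentiles of 95.7 to 98.3 in the 6 libraries, and its rank did not pass (adjusted p = 0.19).

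The region over the start of Fermt3, which encodes kindlin-3, an activator of leukocyte integrins, moved its summit from 3041, 3044 and 3056 bp to 958, 841 and 984 bp. Inside Ctif the summit moved by -2501.0 bp, 11.9 kb from Samd8 by 1958.3 bp and over the start of Znrf1 by 1957.0 bp. The summits of the groups did not overlap in these 5 regions, but the regions were chosen as the farthest moved. Their covered length did not pass the test (limma, adjusted p = 0.85 to 0.97) and their rank did not either (0.058 to 0.72).

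The Nur77 line, whose libraries played no part in choosing the regions, also called more of the gained regions after LPS than before it. Of the 1509 gained regions, its untreated libraries called 8.88%, 2.52% and 11% and its LPS libraries 64.2%, 47.1% and 54.7% (means 7.47 ± 4.41 and 55.3 ± 8.60, SD, n = 3 each). The groups did not overlap, and the difference of 47.9 points had an exact two-sided permutation p of 0.1, the smallest that 3 against 3 allows. In lists of equal length the difference was 29.3 points, with the same p. Of the 800 lost regions the untreated libraries called 54.5%, 22.0% and 57.8% and the LPS libraries 31.0%, 10.1% and 14.5%, a difference of -26.2 points in which the groups overlapped (exact two-sided permutation p = 0.200). In lists of equal length it was -15.9 points (exact p = 0.1). Regions called in 3 of 6 GFP libraries without separating the groups were called at means of 28.6% and 29.2% (exact p = 1.00). The libraries spread widely, at 36.9%, 7.56% and 41.4% in untreated and 44.3%, 16.4% and 26.9% in LPS libraries. Untreated replicate 2 of that line had the fewest peaks (36184) and called the smallest share of each class among the untreated libraries. By the same rule, 443 of the 1509 gained regions were also gained in the Nur77 line. From the 800 lost regions, 42 were lost there. Among the 6353 regions that did not separate, the rule gave 79 gained and 35 lost in that line. Called in no library of that line were 392 gained, 203 lost and 1990 non-separating regions.

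**Figure D5:**
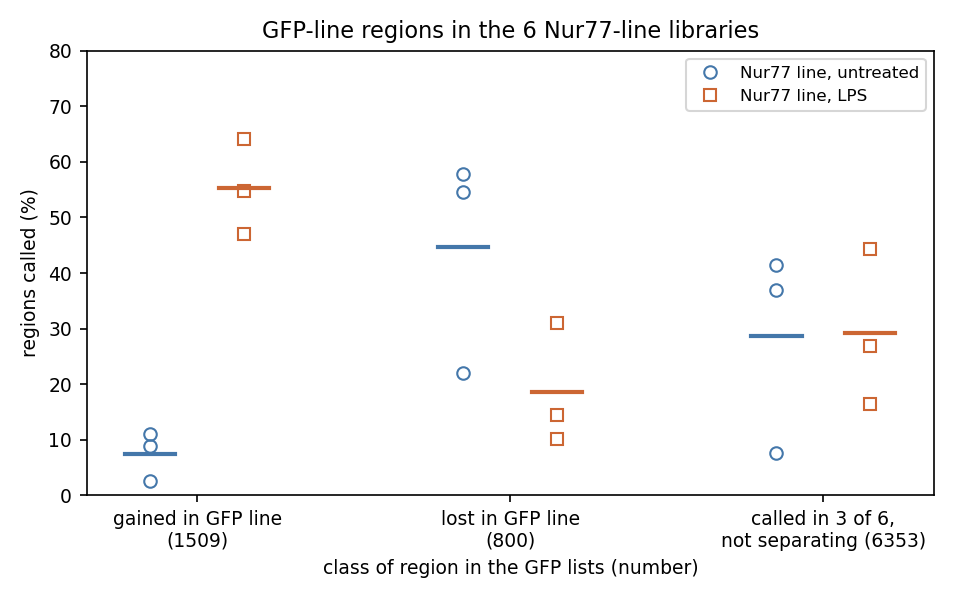
Share of the regions gained, lost or not separating in the GFP lists that each of the 6 Nur77-line libraries called, with bars at the group means. For gained regions the LPS libraries (47.1% to 64.2%) sit above the untreated ones (2.52% to 11%), and for regions that do not separate the means are 28.6% and 29.2%.

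Ranks were compared over the 26570 shared regions that all 12 lists called. Of 2639 that rose in the GFP line, 2544 (96.4%) had a positive difference in the Nur77 line and 1560 (59.1%) also passed there, against 7.51% of all these regions that rose in that line. Of 2713 that fell, 2490 (91.8%) had a negative difference and 787 (29.0%) passed, against 5.01%. None passed in the opposite direction, and 45.5% of all 26570 differences were positive. The region inside Tnfrsf8 rose by 2.48 in normal score there (limma, adjusted p = 3.9e-08), that near Ccl5 by 2.15 (3.6e-08) and that near Ikbke by 1.00 (0.0001), and the Ifitm10 start fell by 1.82 (0.0029). Some named regions that fell in the GFP line did not pass in the Nur77 line, such as those near Ccr2 (difference 0.03, limma, adjusted p = 0.95), Vhl (-0.19, 0.82) and Cpn1 (-0.69, 0.068). Whether the response differed between the lines was not tested here.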

How the data were processed

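Per the submitters' processing notes, the build was mm10 and the tools included DiffBind 3.0.15 and cutadapt 2.6. The aligner and the caller of peaks: not given in the sources used here. Per the peak names in the files, reads had a mapping quality of 20, duplicates and mitochondrial reads were removed, and the q threshold was 0.001. The deposited lists, 1 per library, give the authors' whole-number score, their fold enrichment (a ratio), and -log10 p and -log10 q at the summit. These are the authors' values, used to describe and rank peaks within a list; ranks by fold and by -log10 q are the same.

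Rows with equal start and end were collapsed, chromosomes 1 to 19, X and Y kept, and peaks of the 6 lists overlapping by at least 1 bp merged. Starts are printed 1-based. Ranks, widths and summits of regions called in all 6 lists were tested with limma 3.58.1 (R 4.3.3), 3 against 3 libraries, two-sided, Benjamini-Hochberg adjusted over all such regions at 0.05 and checked on simulated ranks. Genes came from a RefSeq table (21887 protein-coding genes), and 235 of 236 listed genes matched. Named regions are the 14 gained, 10 lost, 14 rising and 10 falling regions with the highest percentiles or largest changes, 5 per class of width and summit, genes with most gained or lost regions, and up to 30 regions near listed genes; other regions are said to be chosen after their values were seen. A region takes the name of the gene it overlaps or is nearest to, which does not show that it acts on that gene. The depth of each library is represented by a background height, the value that makes every fold a whole number of reads (tolerance 0.1 reads, 100.0% of folds). Members and lists were chosen with earlier results of these data known. The other software was scipy 1.17.1, pandas 2.3.3, matplotlib 3.10.9 and numpy 2.4.6 under Python 3.11.15. Alternatives were equal list lengths, a -log10 q of at least 5, summits with 100 bp either side, other rankings, no centring, a replicate block and each library left out.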

Additional observations from a re-analysis of the deposited data

How the results depend on the processing

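Among the alternatives run, no difference of a named region changed sign, but lost regions outnumbered gained ones without LPS replicate 3 (3813 against 1679) and without untreated replicate 1 (2012 against 1660), and narrower outnumbered wider ones without LPS replicate 3 (277 against 228). Ranking within the whole list gave 1419 rising and 493 falling regions, widths without centring 69 wider and 17 narrower regions, and the replicate block 71 moved summits against 138; the cause was not tested. With each library left out in turn, counts ran from 1660 to 4069 gained, 861 to 3813 lost, 2963 to 3694 rising, 1506 to 3106 falling, 147 to 322 wider and 54 to 277 narrower regions, and 150 to 177 moved summits. For the Nur77 line the same gave differences of 43.4 to 52.0 points for gained and -37.6 to -19.7 for lost regions, and 1598 to 2429 regions passing in both lines. Correlations of deviations between same-numbered libraries of the 2 groups were 0.05, 0.01 and 0.00, so the numbers were not taken to pair the libraries. The replicate block gave 3777 rising, 3002 falling, 354 wider and 127 narrower regions, and 2578 passing in both lines against 2347. Of the values of named regions under alternatives, 26 for rank and 3 for width lost their call, while 506 and 99 kept it. Many of these regions were chosen for the size of their difference, so these counts are no sign of stability. A -log10 q of at least 5 gave 1300 gained and 820 lost regions. Peak lists hold no read counts, so a weak region under 5 to 8 reads at its summit could not be seen, and the gained count was highest without LPS replicate 1, the library with the lowest background height.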

Other observations

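Some genes had regions that moved in opposite directions. Of the genes nearest to a shared region that passed for rank, 2626 had at least 1 rising and 2546 at least 1 falling region, and 511 had both. Gse1, which encodes a chromatin-associated protein, had 5 rising and 4 falling regions, Runx1, the gene of a haematopoietic transcription factor, 4 and 3, and Rbm47 and Zmiz1 3 and 3 each. Gse1 was nearest to 30 shared regions, and a gene with more regions has more chances to hold both. Cited2 had 8 rising, 2 falling, 3 gained and 2 lost regions. These genes were chosen after their values were seen.

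On the X chromosome 18 of 472 shared regions rose (3.81%) and 56 fell (11.9%), against 10.9% and 8.65% over all chromosomes, and 18 regions were gained and 8 lost. On the autosomes the share of rising regions ran from 8.78% on chromosome 19 to 13.6% on chromosome 18. Rbfox1, a neuronal splicing factor gene, was nearest to 5 gained regions, all also gained in lists of equal length, and had none called in all 6 libraries, but 4 of the 5 were called in 0 of 3 LPS libraries of the Nur77 line. Among genes with many rising regions, Dlgap2, a synaptic scaffold gene, had 10 of 17 and Phlda1 had 8 of 8.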
